A study of Mus musculus with 20 samples.

Results

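Loss of Dusp5 was examined in resting mouse eosinophils. All 10 untreated arrays of the 20 in the series were used: 5 from Dusp5+/+ mice (wild type) and 5 from Dusp5-/- mice (knockout), chosen by their genotype and treatment labels. The difference given throughout is knockout minus wild type. The cells were eosinophils grown out of bone marrow for 12 days and held in medium alone, and each array held the RNA of 1 sample. The other 10 arrays, 5 of each genotype, were of cells given IL-33 at 25 ng/ml for 4 hours, and are used here only beside the untreated values. The sources used here do not give the mouse strain, age and sex or the way Dusp5 was disrupted, and cells of both genotypes had passed through the same culture.

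Dusp5 encodes a phosphatase of the nucleus that switches off ERK1 and ERK2, MAP kinases, by taking away their activating phosphates. ERK is switched on by growth factor and cytokine receptors through RAS, RAF and MEK, and it acts on transcription factors that start the immediate-early genes, among them the Egr and Fos families. Dusp5 is itself one of the genes that ERK signalling starts, so it works as a negative feedback. In eosinophils, granulocytes of allergic inflammation, ERK is one of the pathways that cytokines such as interleukin 5 and IL-33 engage.

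The start of Dusp5 is shown because it carries a motif of serum response factor. That of Egr2 is shown because Egr2 is an ERK target whose values follow. The windows run from 250 bases before to 50 bases after the annotated start (RefSeq, GRCm38.p6). Capitals mark CArG boxes, the 10-base sites of serum response factor, searched on both strands, of which Dusp5 has 2 side by side, the first 82 bases before the start. The third window is that of Tmem267, a gene that was higher in knockout cells. Its capitals mark the consensus of the EGR transcription factors, GCGGGGGCG, read on the opposite strand. The windows are chr19:53528895-53529194 for Dusp5, chr10:67537680-67537979 for Egr2 and chr13:119487836-119488135 for Tmem267, all on the plus strand.
Dusp5: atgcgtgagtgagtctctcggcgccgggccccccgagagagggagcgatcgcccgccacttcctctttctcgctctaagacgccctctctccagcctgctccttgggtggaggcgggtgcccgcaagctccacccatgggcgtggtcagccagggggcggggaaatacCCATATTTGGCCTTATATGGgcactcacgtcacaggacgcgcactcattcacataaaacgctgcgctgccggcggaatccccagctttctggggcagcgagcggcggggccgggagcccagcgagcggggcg
Egr2: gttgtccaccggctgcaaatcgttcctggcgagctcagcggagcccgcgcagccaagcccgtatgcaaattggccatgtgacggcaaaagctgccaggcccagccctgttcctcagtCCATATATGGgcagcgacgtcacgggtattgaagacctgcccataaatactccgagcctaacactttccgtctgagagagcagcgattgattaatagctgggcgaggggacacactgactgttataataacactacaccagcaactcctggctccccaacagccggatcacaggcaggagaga
Tmem267: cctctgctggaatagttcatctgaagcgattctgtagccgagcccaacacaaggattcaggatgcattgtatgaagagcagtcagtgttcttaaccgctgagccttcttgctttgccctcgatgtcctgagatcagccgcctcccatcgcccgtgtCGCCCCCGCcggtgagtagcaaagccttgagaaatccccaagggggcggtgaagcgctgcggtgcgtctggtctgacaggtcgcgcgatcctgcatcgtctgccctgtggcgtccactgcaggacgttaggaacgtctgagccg
Of 32851 such windows of mouse genes, 1.63% held a CArG box and 2.91% held GCGGGGGCG on either strand. A CArG box was in 4 of the 5 windows listed for Egr2, and GCGGGGGCG in 1 of the 2 listed for Tmem267. The 1 window of 4833407H14Rik, the other gene higher in knockout cells, held neither. A match describes letters and is not evidence of binding.

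The values are log2 expression levels. The median lay between 4.25 and 4.30 on the 10 arrays, and 11767 of 17771 genes were bright enough to be tested. The label was borne out by the granule genes: eosinophil peroxidase Epx averaged 13.52 in wild-type and 13.34 in knockout cells, and major basic protein Prg2 13.82 and 13.76, near the top of the scale, which ended at 13.99. The largest axis of variation among the 10 arrays (the first principal component, 56.3% of the variance) did not part the genotypes. Wild-type array 2 lay with knockout arrays 2, 4 and 5 at its negative end, at -17.8 against -22.6, -21.1 and -15.9. The other 4 wild-type arrays were between 8.02 and 29.3, with knockout array 1 at 8.58 and knockout array 3 at 1.03. This axis recurs in many results below. Its part in the results was not tested.

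Without IL-33, few genes passed the test of a difference between the genotypes. Of 11767 genes, 3 were called (0.0255%) at an adjusted p under 0.05 in limma: Dusp5, which was lower (0.0085% of genes), and 4833407H14Rik and Tmem267, which were higher (0.017%). Whether these 2 were higher through the loss of Dusp5 itself was not tested. Ahead of the correction 1517 genes (12.9%) had a p under 0.05, 632 higher (5.37%) and 885 lower (7.52%) in knockout cells. That count rests on single arrays: it was 2898 without wild-type array 2 and 2246 without knockout array 1, and 600, 752, 757 and 862 without wild-type array 3, knockout array 4, knockout array 2 and wild-type array 5. For 129 genes (1.1%) the values of the groups did not overlap, 62 of them higher (0.527%) and 67 lower (0.569%).

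The signal of the disrupted gene was low in all 5 knockout samples. Dusp5 stood at 8.25, 8.51, 7.85, 8.21 and 7.94 on wild-type arrays 1 to 5, and at 4.24, 4.85, 4.51, 4.36 and 4.02 on knockout arrays 1 to 5. The groups did not overlap, and all knockout arrays kept a signal above the 40th percentile of the array, which lay between 3.56 and 3.63. Dusp5 fell by 3.76 ± 0.17 (SE, n = 5 per group), 13.5-fold, with an adjusted p of 1.4e-11. Which part of the gene is missing is not given here, so the remaining signal cannot be read as a remaining transcript or as background.

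The non-coding RNA 4833407H14Rik, the nearest tested gene beside Dusp5 on chromosome 19, was higher by 1.65 ± 0.20 (3.14-fold, adjusted p = 4.2e-04 in limma). It stood at 7.02, 7.79, 6.85, 7.32 and 7.04 on wild-type arrays 1 to 5 and at 8.36, 8.99, 8.64, 9.26 and 9.03 on knockout arrays. The lowest knockout array lay above the highest wild-type array, which was array 2.

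Tmem267, a gene for a membrane protein on chromosome 13, was higher by 1.44 ± 0.18 (adjusted p = 4.2e-04 in limma). Its wild-type arrays 1 to 5 read 3.77, 3.76, 3.82, 3.84 and 3.94, all just above the 40th percentile, while its knockout arrays read 4.88, 4.98, 5.06, 5.49 and 5.91. Wild-type values were thus tight and close to the dim end of the table, where a log2 difference can understate a change, and the knockout values were spread (SD 0.07 against 0.43).

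**Figure D1:**
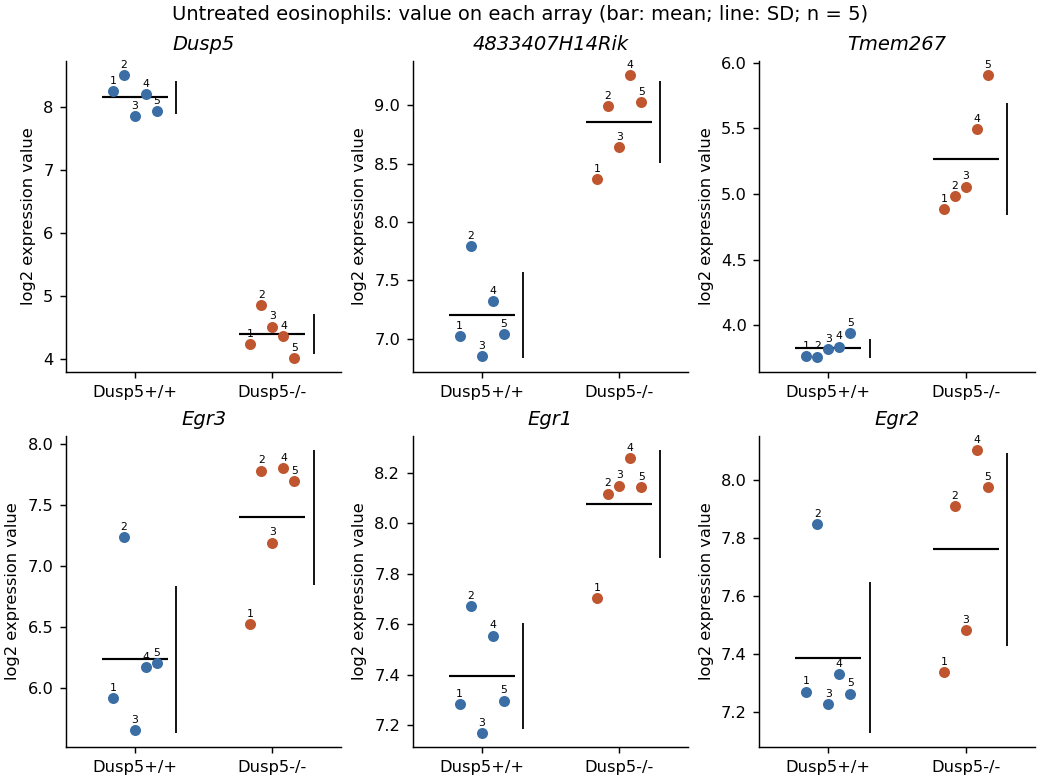
Log2 expression values (vertical axes) of 6 genes on the 5 wild-type (Dusp5+/+, blue) and 5 knockout (Dusp5-/-, orange) untreated arrays, with replicate numbers beside the points, the mean as a bar and the SD as a line. The groups do not overlap for Dusp5, 4833407H14Rik, Tmem267 and Egr1, while wild-type array 2 lies among the knockout arrays for Egr3 and Egr2.

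The genes around the called genes were compared because cells of a knockout can differ from wild type in the chromosome around the disrupted gene. On the Dusp5 side, Mirt1, a non-coding RNA, was higher by 0.41 ± 0.16 (adjusted p = 0.38 in limma), with 5.21, 5.30, 5.65, 4.86 and 5.43 on wild-type and 5.45, 5.50, 5.73, 5.98 and 5.85 on knockout arrays. These values overlapped between the genotypes. Mxi1, which encodes a MYC antagonist, did not overlap between groups but differed by only 0.11 ± 0.07. The splicing factor gene Smndc1 (0.15 ± 0.09), the cohesin subunit Smc3 (-0.07 ± 0.13), Rbm20 (0.06 ± 0.10) and the translation inhibitor Pdcd4 (0.28 ± 0.14) were not called. Within 10 Mb of Dusp5, 104 other genes were tested, of which 4833407H14Rik was the 1 called and 14 had an unadjusted p under 0.05, where the share over all genes was 12.9%. Their median difference was 0.02.

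Beside Tmem267 no gene was called. Fgf10, a fibroblast growth factor (0.19 ± 0.11), 4833420G17Rik (0.19 ± 0.14), the chemokine Ccl28 (0.02 ± 0.11), the cholesterol enzyme Hmgcs1 (-0.13 ± 0.34), Zfp131 (-0.02 ± 0.06) and Nnt, the mitochondrial transhydrogenase (-0.02 ± 0.07), flank it among tested genes. Of 25 tested genes within 10 Mb, 2 had an unadjusted p under 0.05. After IL-33 the comparison of genotypes called Nnt lower in knockout cells (-0.31 ± 0.07, adjusted p = 0.024 in limma), and it called the Dusp5 neighbours Mirt1 (0.77 ± 0.16) and Smndc1 (0.45 ± 0.09) higher, both with an adjusted p of 0.019.

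The immediate-early genes are the direct read-out of nuclear ERK. None was called, and Egr3, Egr1 and Egr2 had the 3 largest differences among them. Egr3, which encodes an early growth response transcription factor, stood at 5.92, 7.24, 5.65, 6.17 and 6.20 on wild-type arrays 1 to 5 and at 6.52, 7.78, 7.19, 7.80 and 7.69 on knockout arrays. Wild-type array 2 lay above knockout arrays 1 and 3, and the other 4 wild-type arrays lay below every knockout array. The difference was 1.16 ± 0.27 (95% interval 0.60 to 1.72, adjusted p = 0.31 in limma). Without wild-type array 2 Egr3 was called, at 1.41 with an adjusted p of 0.024.

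Egr1, the founding member of the family, was 7.28, 7.67, 7.17, 7.56 and 7.30 in wild-type and 7.70, 8.12, 8.15, 8.26 and 8.14 in knockout cells. The groups did not overlap, with knockout array 1 just above wild-type array 2. The difference of 0.68 ± 0.18 had a 95% interval of 0.31 to 1.05 and an adjusted p of 0.38 in limma. Egr2 differed by 0.37 ± 0.15, with wild-type array 2 at 7.85 and the other wild-type arrays at 7.23 to 7.33, against 7.34 to 8.10 on the knockout arrays. Without wild-type array 2, Egr1 (0.75 ± 0.19) and Egr2 (0.49 ± 0.14) were not called either.

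Over the list of ERK-induced immediate-early genes, 21 of 23 were tested, 0 were called, and 6 had an unadjusted p under 0.05, all higher in knockout cells (all genes: 5.37%). Besides the 3 Egr genes these were the stress-induced repressor Atf3 (0.28 ± 0.10), Ier5 (0.27 ± 0.10) and the antiproliferative Btg2 (0.31 ± 0.13). The list's median difference was 0.09, where that of all genes tested was -0.005. It was 0.05 without knockout array 4 and 0.06 without wild-type array 5. Fos (-0.02 ± 0.12), Jun (0.06 ± 0.10), Myc (0.04 ± 0.12), Ier3 (-0.10 ± 0.08), Egr4 (-0.09 ± 0.10) and Srf (0.01 ± 0.08) were close to 0. Fosb and Nr4a2 were too dim to test.

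The feedback inhibitors of the pathway are a slower read-out of ERK. Dusp6, the cytoplasmic ERK phosphatase, was 8.42, 9.14, 8.44, 8.62 and 8.20 in wild-type and 8.40, 9.35, 8.76, 9.45 and 9.53 in knockout cells, a difference of 0.53 ± 0.23 (adjusted p = 0.38 in limma). The groups overlapped: wild-type array 2 was among the high values and knockout array 1 among the low ones. Without wild-type array 2 Dusp6 stood at 0.68 ± 0.23 and was not called. Dusp4, another nuclear ERK phosphatase, differed by 0.25 ± 0.10 and Spred1, which restrains RAS, by 0.37 ± 0.16. The last 4 tested members were Dusp2 (0.23 ± 0.14), Spred2 (0.10 ± 0.16), Spry1 (-0.12 ± 0.10) and Spry2 (-0.12 ± 0.17). In all 0 of 7 were called and 3 had an unadjusted p under 0.05, all higher (all genes: 5.37%), with a list median of 0.23. Of the ERK phosphatases tested here, none but Dusp5, the disrupted gene itself, was called.

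Of 13 other ERK output genes 11 were higher (all genes: 48.8%) and 0 were called, with a median of 0.19. The ETS factor Etv5 stood at 0.48 ± 0.24, the AP-1 subunit Fosl2 at 0.39 ± 0.16, cyclin D1 (Ccnd1) at 0.33 ± 0.19 and the Egr corepressors Nab1 and Nab2 at 0.30 ± 0.16 and 0.24 ± 0.10. Plaur (-0.16 ± 0.09) and Hbegf (-0.13 ± 0.17) were lower. On the means by array, the 3 ERK output lists each had wild-type array 2 above the other wild-type arrays and knockout array 1 below the other knockout arrays.

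The kinases upstream differed little. Of 14 tested genes of the RAF-MEK-ERK cascade 0 were called and 3 had an unadjusted p under 0.05, all higher (all genes: 5.37%): the GTPase Nras (0.22 ± 0.08) and the ERK-activated kinases Rps6ka3 (0.40 ± 0.18) and Mknk1 (0.26 ± 0.11). The MEK genes Map2k1 (0.01 ± 0.07) and Map2k2 (0.06 ± 0.07) had among the narrowest errors. In the JNK and p38 cascade 1 of 10, the p38 activator Map2k3 (0.32 ± 0.13), had such a p, with a list median of 0.04 (0.01 without knockout array 5, 0.06 without knockout array 2 and 0.07 without wild-type array 2). Among 7 other MAP kinase phosphatases none did, with a median of 0.06 that turned to -0.0044 without knockout array 2 and was 0.12 without wild-type array 3, Dusp1 at 0.30 ± 0.14 and Dusp16 at 0.06 ± 0.10.

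**Figure D2:**
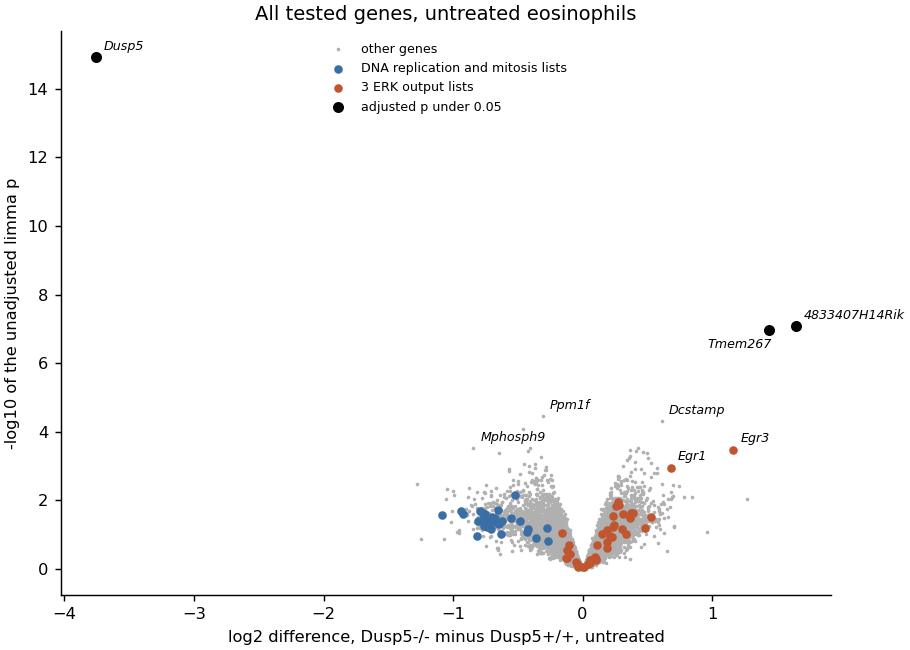
Difference between genotypes (horizontal axis, log2, knockout minus wild type) against -log10 of the unadjusted limma p (vertical axis) for 11767 genes in untreated cells. The 3 called genes (black) stand away from the rest, members of the 3 ERK output lists (orange) lie mostly right of 0 and members of the replication and mitosis lists (blue) all lie left of 0.

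Beyond the called genes, the ranking by moderated t gave the genes nearest to the threshold. Dcstamp, a transmembrane protein of cell fusion in osteoclasts and macrophages, was 4.86, 5.12, 5.27, 5.06 and 5.09 in wild-type and 5.90, 5.45, 5.91, 5.82 and 5.37 in knockout cells (0.61 ± 0.12, adjusted p = 0.11 in limma). Ppm1f, a serine/threonine phosphatase, was 6.75, 6.75, 6.96, 6.75 and 6.82 against 6.47, 6.46, 6.47, 6.44 and 6.64 (-0.31 ± 0.06, adjusted p = 0.10). Neither overlapped between genotypes, and both were called without knockout array 5 (adjusted p = 0.028 each), Ppm1f also without wild-type array 2 (0.049). Bbs9, of the cilium's BBSome, was lower by 0.46 ± 0.09 on arrays that did not overlap (5.15 to 5.56 against 4.75 to 5.00, adjusted p = 0.16).

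Next on the higher side were 2610005L07Rik (0.43 ± 0.10), the PD-1 ligand Pdcd1lg2 (0.41 ± 0.10), the histone acetyltransferase Kat7 (0.47 ± 0.11), plakoglobin (Jup, 0.35 ± 0.09) and urokinase (Plau, 0.51 ± 0.12). Pdcd1lg2 ran from 5.28 to 5.56 in wild-type and from 5.75 to 5.88 in knockout cells, and so had 2 tight and separate groups. On the lower side were the centriolar Mphosph9 (-0.84 ± 0.19), the helicase-nuclease Dna2 (-0.42 ± 0.10), the DNA sensor Cgas (-0.64 ± 0.15), the actin-severing Cfl2 (-0.41 ± 0.09), Lrmp (-0.32 ± 0.08), Ift80 (-0.37 ± 0.10) and Alms1 (-0.45 ± 0.11). Their adjusted p lay between 0.31 and 0.38 in limma. For Mphosph9, Dna2, Cgas and the kinetochore gene Cenpm (-0.57 ± 0.15), wild-type array 2 was the lowest wild-type array.

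Genes of dividing cells were the widest group below 0. All 17 tested DNA replication genes were lower in knockout cells (all genes: 48.8% higher), with a median of -0.63. So were all 16 tested mitosis genes, with a median of -0.75. No member of either list was called. An unadjusted p under 0.05 was found for 10 and 12 of them, beside 7.52% of all genes in that direction. The members of these lists rise and fall together between arrays, so their number is not a number of independent observations.

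Mki67, a marker of cycling cells, was 10.38, 9.67, 11.51, 10.48 and 10.86 on wild-type arrays 1 to 5 and 10.43, 9.39, 9.43, 9.28 and 9.68 on knockout arrays (-0.94 ± 0.37). Rrm2, a subunit of ribonucleotide reductase, differed by -0.92 ± 0.38, the mitotic motor Cenpe by -1.09 ± 0.46, the licensing factor Cdc6 by -0.76 ± 0.33 and the mitotic kinase Plk1 by -0.81 ± 0.37. Thymidine kinase Tk1 (-0.52 ± 0.17) was the 1 member of either list without overlap (all genes: 0.569% lower without overlap). The mean of the mitosis list was 8.72, 7.82, 9.46, 8.43 and 9.10 on wild-type arrays 1 to 5 and 8.61, 7.58, 7.95, 7.64 and 8.01 on knockout arrays. Wild-type array 2 was thus within the knockout range and knockout array 1 within the wild-type range. Without wild-type array 2 the list medians were -0.87 for replication and -0.97 for mitosis, and again 0 members were called. In bulk RNA, fewer dividing cells and less of these transcripts per cell cannot be told apart.

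**Figure D3:**
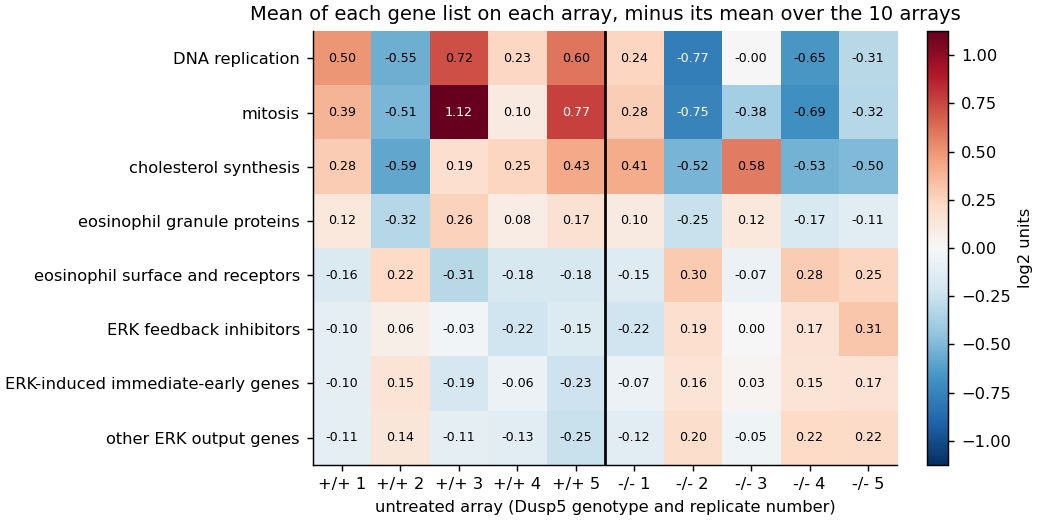
Mean log2 value of the tested members of 8 gene lists (rows) on each of the 10 untreated arrays (columns, wild type left and knockout right of the line), minus the list's mean over those arrays, in log2 units. Wild-type array 2 has the colours of knockout arrays 2, 4 and 5 in the replication, mitosis, cholesterol and eosinophil surface lists.

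Eosinophil genes were held in both genotypes. The 3 tested granule protein genes were lower by small amounts, with Epx at -0.18 ± 0.18 (95% interval -0.56 to 0.19), Prg2 at -0.06 ± 0.06 and Prg3 at -0.14 ± 0.13, and 0 had an unadjusted p under 0.05. Their median of -0.14 was -0.25 without wild-type array 2, and -0.08 without wild-type array 3 or knockout array 2. Of 16 surface and receptor genes 15 were higher in knockout cells (all genes: 48.8%), with a median of 0.25. Of these 16, 0 were called and 6 had an unadjusted p under 0.05, all higher (all genes: 5.37%). The tetraspanin Cd9 (0.30 ± 0.09), the cytokine receptor chains Csf2rb2 (0.33 ± 0.14) and Csf2ra (0.29 ± 0.10) and the complement receptor C3ar1 (0.34 ± 0.15) were among those 6. The inhibitory Pirb (0.27 ± 0.12) and P2ry14 (0.22 ± 0.09) were the others. The receptor chain Csf2rb (0.29 ± 0.15) was not among them.

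The eotaxin receptor Ccr3 had the largest difference of that list, 0.71 ± 0.35, and the widest spread. It stood at 8.44, 9.67, 7.66, 8.40 and 8.56 in wild-type and at 8.53, 9.76, 8.61, 9.63 and 9.75 in knockout cells, so that wild-type array 2 again sat with knockout arrays 2, 4 and 5. Without that array the difference was 0.99 ± 0.33, not called. Siglecf was at 0.15 ± 0.15. The interleukin 5 receptor chain Il5ra was the 1 lower member, at -0.25 ± 0.16. Among 12 lineage transcription factors Gata1 (-0.03 ± 0.06) and Gata2 (0.00 ± 0.09) differed little, and Ikzf2 (Helios) was higher without overlap, at 0.37 ± 0.12, with 7.94 to 8.35 against 8.43 to 8.73 (adjusted p = 0.38 in limma).

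Chemokine and cytokine genes gave no call. Of 15 chemokine genes 10 were higher (all genes: 48.8%) and 5 had an unadjusted p under 0.05, all higher (all genes: 5.37%). Their median was 0.20, and 0.12 to 0.13 without knockout array 5 or 2 or wild-type array 5. Cxcl3 stood at 0.85 ± 0.29, Ccl9 at 0.67 ± 0.25, Ccl3 at 0.47 ± 0.14, Ccl4 at 0.38 ± 0.14 and Ccl7 at 0.26 ± 0.12. For Cxcl3, wild-type array 2 read 7.67 and the other wild-type arrays 6.22 to 6.50, while knockout arrays 1 and 3 read 6.67 and 7.02 and the other 3 from 7.73 to 8.01. Without wild-type array 2 the differences were 1.11 ± 0.25 for Cxcl3 and 0.90 ± 0.22 for Ccl9, neither of them called. Ccl3 showed less of this, with 8.97 to 10.07 in wild-type and 9.99 to 10.19 in knockout cells. Of 14 cytokine genes 2 had an unadjusted p under 0.05, both higher (all genes: 5.37%): Csf1 (0.43 ± 0.15) and the type 2 cytokine Il4 (0.40 ± 0.14). Il13 (-0.01 ± 0.24) and Il6 (-0.02 ± 0.10) had no such p.

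Survival genes, which ERK can act on, gave no call and differed by at most 0.39 in size. Bcl2l1, which encodes Bcl-xL, was at 0.12 ± 0.09 (95% interval -0.06 to 0.30), Mcl1 at 0.30 ± 0.15 and Bcl2 at 0.08 ± 0.18, and Bcl2l2 at -0.25 ± 0.10. Of 9 pro-apoptotic genes, Bcl2l11, which encodes Bim, was at 0.39 ± 0.13, with 4.96 to 5.26 in wild-type and 5.24 to 5.77 in knockout cells, and the list median was -0.12. An unadjusted p under 0.05 was found for 1 of 4 anti-apoptotic genes, Bcl2l2, which was lower (all genes: 7.52%). It was also found for 1 of the 9 pro-apoptotic genes, Bcl2l11, which was higher (all genes: 5.37%).

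Other programmes were also without a call. NF-kB targets and feedback genes had a median of -0.06 (-0.01 without knockout array 2) and 0 of 17 with an unadjusted p under 0.05. The 10 genes of the IL-33 signalling chain had a median of -0.03, which changed sign without 6 of the 10 arrays in turn, with the kinases Irak2 at 0.37 ± 0.12 and Irak1 at -0.18 ± 0.08. STAT targets had a median of 0.12, led by the signalling inhibitor Socs3 (0.43 ± 0.17), and antioxidant genes one of 0.08 (0.02 without wild-type array 3 and 0.14 without wild-type array 1). The median of interferon-stimulated genes, 0.16 with Usp18 at 0.55 ± 0.33, was 0.0019, 0.065 and 0.083 without wild-type array 5, knockout array 2 and knockout array 4, and 0.26, 0.30 and 0.34 without wild-type array 3, knockout array 1 and knockout array 3. All 12 cholesterol synthesis genes were lower (all genes: 48.8% higher), with a median of -0.22, and 0 had an unadjusted p under 0.05. That median was -0.41, -0.40 and -0.34 without wild-type array 2, knockout array 3 and knockout array 1. It was -0.11 to -0.14 without knockout array 2, 4 or 5 or wild-type array 5. Their mean was 8.16 on wild-type array 2 and 8.93 to 9.17 on the others, and 8.21 to 8.24 on knockout arrays 2, 4 and 5 but 9.16 and 9.32 on arrays 1 and 3.

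Stress and metabolic genes were of the same order. The unfolded protein response list had a median of -0.24 (-0.07 without wild-type array 3, -0.14 without knockout array 2 or 4 and -0.37 without wild-type array 2), with Atf4 at -0.50 ± 0.23, the asparagine synthetase Asns at -0.95 ± 0.53 and the glutathione-cleaving Chac1 at 0.34 ± 0.15. Glycolysis genes had a median of -0.10 (-0.03 without knockout array 2 and -0.16 without wild-type array 2), with the glucose transporters Slc2a1 (0.19 ± 0.08) and Slc2a3 (0.16 ± 0.07) higher. Among eicosanoid genes (median 0.10, and 0.04 without knockout array 2), the lipoxygenase Alox15 (-0.22 ± 0.09) and the leukotriene hydrolase Lta4h (-0.33 ± 0.12) were lower.

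Markers of other marrow cells were measured because the cultures began as whole marrow. Neutrophil markers were present, with S100a9 at 12.74, S100a8 at 12.50 and Ngp at 11.89 in wild-type cells. Over its 10 tested members the list's mean ran from 8.84 to 9.34 on wild-type and from 8.76 to 9.63 on knockout arrays, with a median difference of 0.17 (0.08 without knockout array 5 and 0.25 without knockout array 1). Of these 10, 7 were higher, led by Mmp9 at 0.61 ± 0.22 and Cxcr2 at 0.49 ± 0.20. The 3 lower were Ngp (-0.27 ± 0.25), Mpo (-0.10 ± 0.30) and Elane (-0.06 ± 0.23). Monocyte and macrophage markers ran from 8.01 to 8.50 and from 7.96 to 8.40 (median difference 0.05 over 8 genes). That median was below 0 without wild-type array 5 (-0.02), knockout array 4 (-0.02) or knockout array 5 (-0.01), and 0.17 without wild-type array 2. Of these 8, 5 were higher, led by Adgre1 (0.35 ± 0.18), and 3 lower. Marco, a scavenger receptor close to the dim end, was the 1 member without overlap (all genes: 0.569% lower without overlap), at -0.29 ± 0.08.

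Mast cell and basophil markers ran from 8.22 to 8.48 and from 8.21 to 8.46 (median 0.00 over 7 genes, and -0.04 to 0.06 without 1 array), with Cpa3 at 12.67 and Mcpt8 at 11.79 in wild-type cells. Lymphocyte markers were near the dim end: Cd3e averaged 4.29 and Cd79a 3.67, and Ms4a1 and Ncr1 were too dim to test. Erythroid and megakaryocyte markers (median -0.08 over 4 genes, and -0.03 without wild-type array 3 and -0.14 without wild-type array 2) ran from 8.16 to 8.49 and from 8.07 to 8.28, with Klf1 at -0.33 ± 0.15. The 1 higher member was Pf4, at 0.05 ± 0.14. Stem and progenitor markers (median -0.11 over 7 genes, and 0.02 without wild-type array 3 and -0.20 without knockout array 5) ran from 6.53 to 6.88 and from 6.22 to 6.79. Of these 7, 4 were lower, among them Erg at -0.50 ± 0.15 and Myb at -0.45 ± 0.21. The 3 higher were Meis1 (0.34 ± 0.20), Sox4 (0.12 ± 0.21) and Flt3 (0.04 ± 0.17). No marker of another cell type was called, and the part of cell mixture in the results above was not tested.

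**Figure D4:**
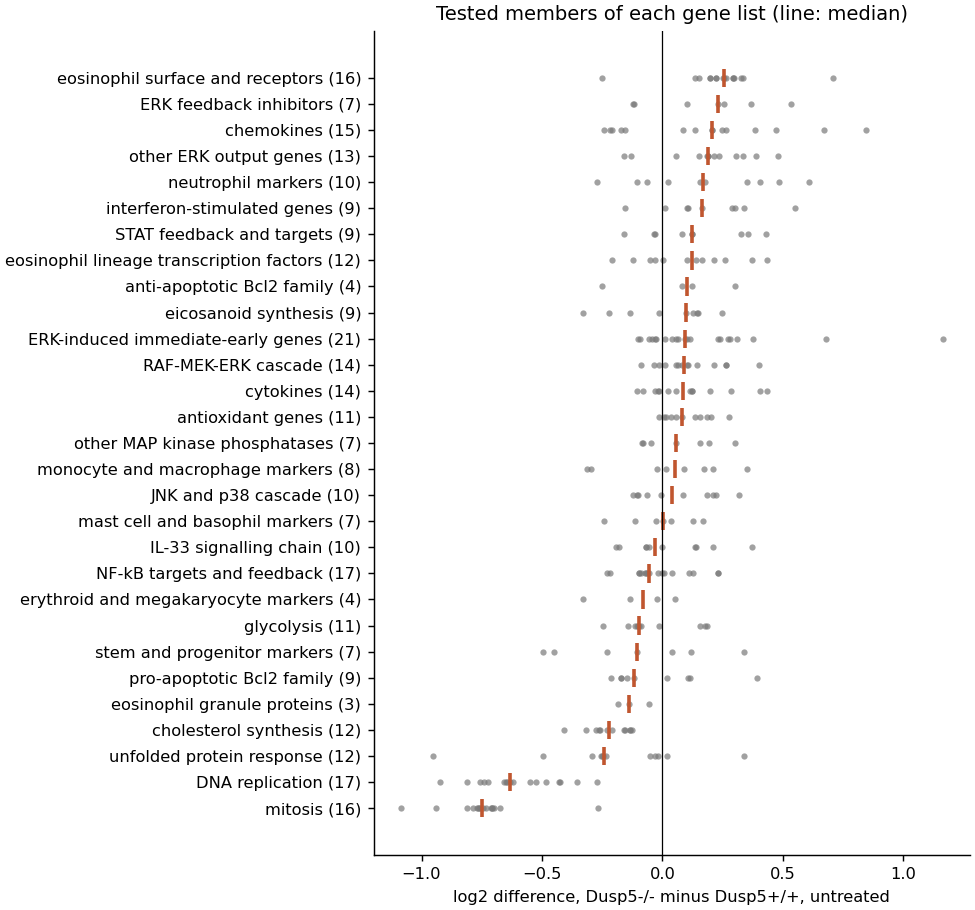
Difference between genotypes in untreated cells (horizontal axis, log2, knockout minus wild type) for each tested member (points) of 29 gene lists with 3 or more tested members (rows, number of members in brackets), with the list's median as a line. The replication and mitosis lists, with medians of -0.63 and -0.75, lie apart from the remaining lists, whose medians run from -0.24 to 0.25.

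The genotype difference after IL-33 was measured on the other arrays of the same mice and is set beside the untreated one. After IL-33 the comparison called 260 genes (2.21%), of which 116 (0.986%) were higher in knockout cells. Egr1 stood at 1.52 ± 0.18 after IL-33 and 0.68 ± 0.18 without it, Egr3 at 1.60 ± 0.27 and 1.16 ± 0.27, Egr2 at 0.74 ± 0.15 and 0.37 ± 0.15, and Dusp6 at 0.96 ± 0.23 and 0.53 ± 0.23. These 4 genes were called after IL-33. The test of the change in the difference, the interaction, called 0 genes in limma (0%) when the mouse was left out of the model, with 568 genes (4.83%) at an unadjusted p under 0.05. Untreated and IL-33 arrays come from the same mice, and once the model held the mouse as a random block, the interaction called 26 genes (0.221%), 16 above and 10 below 0. For Egr1 the interaction was 0.84 ± 0.25 (adjusted p = 0.69) without the block and 0.84 ± 0.22 (adjusted p = 0.11) with it. For Egr3 it was 0.44 ± 0.38 (adjusted p = 0.999) without and 0.44 ± 0.33 (adjusted p = 0.64) with the block.

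The genes called without IL-33 were called after it too. There 4833407H14Rik differed by 1.82 ± 0.20 (interaction 0.17 ± 0.28) and Tmem267 by 1.37 ± 0.18 (interaction -0.07 ± 0.25, which turned to 0.07 with quantile normalization). Dusp5 differed by -4.82 ± 0.17 after IL-33, and its interaction of -1.07 ± 0.23 had an adjusted p of 0.42 in limma and of 0.022 with each mouse as a random block. Dna2 (-0.64 ± 0.10 after IL-33) and Pdcd1lg2 (0.49 ± 0.10) were also called after IL-33. Plau (-0.11 ± 0.12 after IL-33), Cfl2 (0.24 ± 0.09) and Mphosph9 (-0.31 ± 0.19) were among those that were not. For Cfl2 the interaction was 0.65 ± 0.11 with the mouse as a block (adjusted p = 0.023 in limma).

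**Figure D5:**
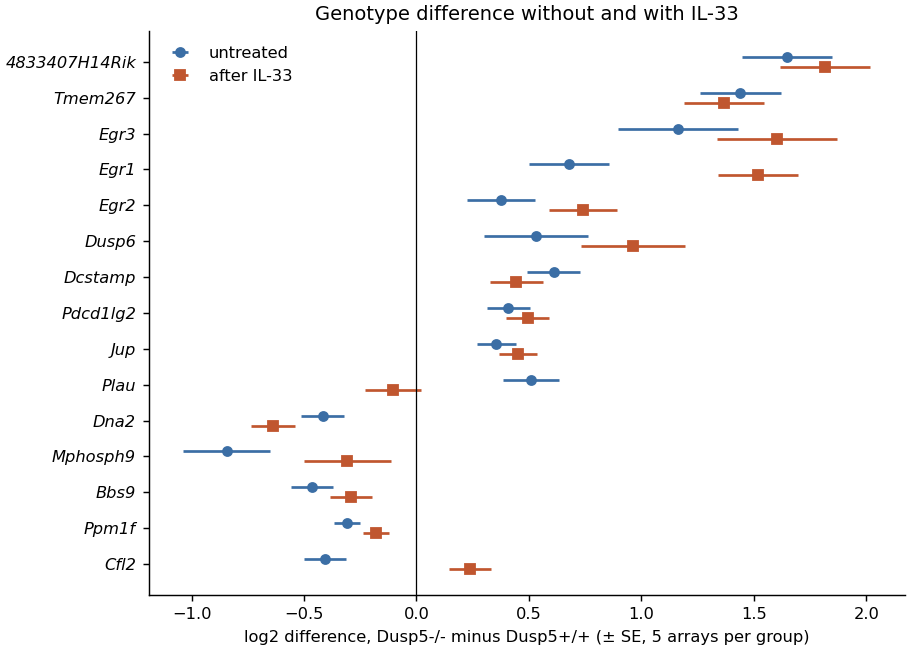
Difference between genotypes (horizontal axis, log2, knockout minus wild type, ± SE, 5 arrays per group) for 15 genes (rows) without IL-33 (blue circles) and after it (orange squares). For 4833407H14Rik and Tmem267 the markers lie close to each other, while Egr1 stands at 0.68 without and 1.52 after IL-33, and Plau and Cfl2 have opposite signs.

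The precision of the arrays sets how much could have been seen. The median SE of a difference was 0.10, and for 11428 genes (97.1%) the 95% interval lay within a 2-fold change in either direction. Differences above 1 in size were measured for 14 genes, 4 higher and 10 lower. The count of called genes depends on how arrays are weighted. Limma estimated a weight of 0.48 for wild-type array 2, 0.63 for wild-type array 3, 0.67 for knockout array 1 and 0.77 for knockout array 3. The remaining untreated arrays had weights of 1.09 to 1.78. These weights were estimated from the same values that were then tested. With such a weight for each array, 1466 genes (12.5%) were called, 599 higher and 867 lower. Those included Egr3, 15 of 17 replication and 15 of 16 mitosis genes, all lower, and 8 of 16 eosinophil surface genes, all higher. Of the ERK lists they included 8 of 21 immediate-early genes and 2 of 7 feedback inhibitors, all higher. Also among them were 4 of 13 other ERK output genes (3 higher, 1 lower) and 4 of 14 cascade genes, all higher. Without wild-type array 2 the unweighted fit called 15 genes, among them Egr3, Kat7, Ppm1f, Bbs9, Mphosph9, Cgas and Cenpm, and without knockout array 5 it called 5.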

How the data were processed

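RNA of cultured eosinophils was labelled with a 3' amplification kit and hybridised to one-colour Affymetrix arrays, per the labels' protocols. The table deposited by the authors holds log2 values for 20630 probe sets on 20 arrays. The log2 scale was read from the values, and the background correction and normalization behind it are stated in no source used here, so a difference rests on the authors' scaling. Gene symbols came from the platform annotation: 17826 probe sets had 1 symbol, 91 several and 2711 none, and 17675 were matched to RefSeq (GRCm38.p6). Of several probe sets of a gene, the brightest was taken.

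A gene was tested where its value was above the array's 40th percentile (3.56 to 3.68) on at least 5 arrays, which stands in for a background level. All 20 arrays entered 1 fit with a mean per group (limma 3.58.1, R 4.3.3, 16 residual degrees of freedom), and each adjusted p is Benjamini-Hochberg over 11767 genes. The number of arrays limits the precision. The probe sets with no single symbol were fitted apart: of 1114 bright enough, 0 were called in limma and 140 had an unadjusted p under 0.05.

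Named are the called genes, the 15 highest and 15 lowest by moderated t, up to 4 members of each list with the largest difference, set genes of eosinophils, survival and ERK, and 3 tested neighbours on either side of a called gene. Other list members named, and Hbb-y, Dmc1, Grb10 and Dmrt1, were picked with their values known. The members and lists were chosen with earlier results of these data known. Some gene results of the IL-33 pathway are not reported here.

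The series names 5 mice per genotype. Within a genotype, same-numbered arrays without and with IL-33 deviated together (correlation 0.262 to 0.783, each of 10 best with its own number), so the number there marks the mouse. Between genotypes, the correlation of same-numbered arrays was 0.17, 0.60, 0.27, -0.06 and -0.17 for numbers 1 to 5, and 1 of 5 was best with its own number, so the numbers were not taken to pair the genotypes. Within groups, arrays correlated at 0.976 to 0.996, and 0 pairs were identical. The alternatives were other filters, scalings, variance models, blocks, and leaving out each untreated array.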

Additional observations from a re-analysis of the deposited data

Results flagged for a closer look

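Among the 161 named genes, 22 of 322 groups of 5 untreated arrays held an array whose gap to the nearest other exceeded 0.71 of the group's range (chance gives about 1 in 20). In 14 of these the array was wild-type array 2. It was the highest of its group for the chemokines Cxcl3 (7.67, the others 6.22 to 6.50) and Ccl9 (11.92, the others 10.54 to 10.92), for Egr2 (7.85), Chac1 (5.51), Tab2 (9.62), Hk2 (10.97), Tnfaip3 (8.73), Socs2 (7.64), Hpgds (5.49) and Pf4 (11.77). It was the lowest for Prg2 (13.62, the others 13.83 to 13.89), Sqle (8.42, the others 9.44 to 9.70), cyclin E2 (Ccne2, 5.83, the others 7.08 to 7.54) and Irak1 (7.10).

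Knockout array 1 stood apart as the lowest of its group for Egr1 (7.70, the others 8.12 to 8.26) and Bcl2l1 (7.64), and as the highest for Dna2 (7.01). Wild-type array 3 was the highest for Camp (8.37) and Car2 (5.99). Ikzf2 was highest on knockout array 4 (8.73), Ppm1f highest on knockout array 5 (6.64) and Bmf lowest on knockout array 3 (4.74).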

How the results depend on the processing

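The 3 calls were kept in number with only the 10 untreated arrays, quantile normalization, median centring, limma's trend, every probe set kept, the mouse as a random block and the replicate number as a fixed block (3 genes in each). No filter gave 4 genes. The 60th percentile gave 2, since Tmem267 was then not tested. Array weights gave 1466 genes, and leaving out 1 array gave 3 to 15. The replicate block changed no call of a named gene in untreated cells, and the fixed block raised the genes with an unadjusted p under 0.05 from 1521 to 2315. With a random block for the mouse the interaction of Dusp5 passed, at -1.07 (adjusted p = 0.022), as 1 of 26 genes where the unblocked fit called 0 (a count added after seeing the data). That of Tmem267 turned to 0.074 with quantile normalization. Of the named genes' values under these settings, 3073 kept direction and side of the threshold, 98 gained a call and 28 changed sign. The sign changes were with quantile normalization Car2 (0.0049) and Nnt (0.00724), with array weights Car2 (0.029) and Zfp131 (0.00037), and without 1 array Car2 (from -0.095 to 0.018), Nnt (-0.043 to 0.021), Zfp131 (-0.074 to 0.0099), Hmgcs1 (-0.39 to 0.031), Bcl2 (-0.039 to 0.18), Rbm20 (-0.024 to 0.14), Pf4 (-0.025 to 0.14), Cd79a (-0.068 to 0.16), Xist (-0.032 to 0.18) and Ccl28 (-0.041 to 0.062). The list medians of the IL-33 signalling chain (0.0004 with quantile normalization), mast cell markers (-0.03 with the 60th percentile) and stem markers (0.06 with array weights) also changed sign. On leaving out 1 array, the medians of 21 of 29 lists moved by over 1.5 times, 5 of them with a change of sign: the IL-33 signalling chain, mast cell, monocyte and stem cell markers and the other MAP kinase phosphatases. The cause was not tested. Dim genes such as Tmem267 lie where signal over background limits the size of a difference.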

Other observations

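Of the 14 genes with a difference above 1 in size, several belong to no list of the report. The embryonic globin Hbb-y was higher in knockout cells by 1.27 ± 0.44. The meiotic recombinase Dmc1 (-1.28 ± 0.38), the receptor adaptor Grb10 (-1.25 ± 0.79) and the gonadal transcription factor Dmrt1 (-1.06 ± 0.36) were lower. None of these was called in limma (adjusted p 0.38 to 0.46).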
